A study of Mus musculus with 7 samples.

Results

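Genes that carry a cell through mitosis, 49 of the 51138 genes in the count table, were followed in splenic regulatory T cells (Tregs). They were taken by symbol from a fixed list of genes for mitotic entry, for the anaphase-promoting complex (APC/C), for spindle assembly and for cytokinesis. Kinesin genes were left out of that list. The rule for membership uses no measured value, but the list was chosen with earlier results of these data known. Tregs restrain immune responses and depend on interleukin-2 (IL-2). They were sorted from spleens of C57/BL6 mice that carry a red fluorescent reporter of Foxp3, the factor that defines Tregs. One group of 4 samples came from mice injected with 20 ug of FP, a fusion of IL-2 with its receptor chain CD25. The control group of 3 samples came from mice injected with 100 uL of PBS. Every sample was taken 72 h after the injection, and the animals' age and sex are not stated. The labels call the replicates separate samples without naming separate mice, so p values speak only of the spread among these samples, which may be technical.

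Entry into mitosis is driven by the kinase CDK1 bound to a cyclin. The kinases Wee1 and Myt1 (gene Pkmyt1) hold CDK1 inactive by phosphorylation, and the Cdc25 phosphatases release it. Polo-like and Aurora kinases then build the spindle. The APC/C, a large ubiquitin ligase, ends mitosis by marking cyclins and securin for destruction, with Cdc20 as its activator in mitosis and Cdh1 (gene Fzr1) as its activator afterwards. Many mitotic genes are transcribed mainly in dividing cells, while the APC/C core is held to be present through the cycle. Resting Tregs divide slowly and IL-2 is a growth factor for them.

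Of the 49 members 48 had enough counts to be tested, and 41 of these were higher after FP while 0 were lower. Over all 15954 genes tested, 39.5% were called in either direction, 21.0% higher and 18.5% lower. The rises were also large: 32 members rose at least 4-fold, against 2.66% of all genes, and 18 rose at least 16-fold, against 0.909% of all genes. The median log2 fold change of the tested members was 3.30, beside -0.05 for all genes tested. In 41 members every FP library lay above every PBS library, which was so for 23.2% of all genes, and in 0 members every FP library lay below, which was so for 23.5% of all genes. No member was lower at an unadjusted p under 0.05 in edgeR (0 of 48), and the tests of DESeq2 and limma-voom also called 0 members lower. Over all genes, dropping PBS replicate 2 left 1869 called lower and dropping PBS replicate 3 left 1774, against 2953 with all libraries. With library size alone in place of trimmed mean of M values (TMM) factors, 2023 genes were called higher and 5046 lower, against 3355 and 2953. That scaling moved the median of all genes to -0.31 and upper-quartile factors moved it to -0.25, and the members called higher then numbered 40 and 41. Under each of these scalings 1 member, the APC/C core gene Cdc23, was called lower.

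**Figure D1:**
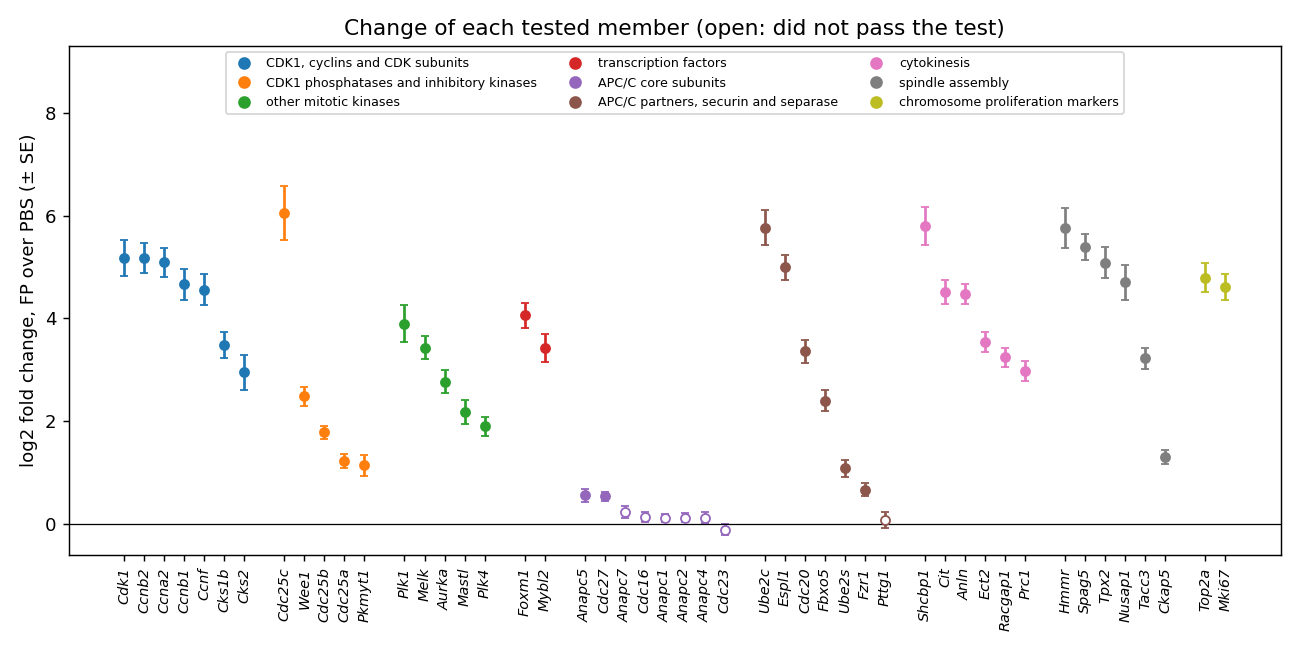
Log2 fold change of FP over PBS (± SE) for each of the 48 tested members, grouped by role and ordered by size within a role; open points did not pass the test. Points run from -0.11 for Cdc23 to 6.05 for Cdc25c, and the APC/C core subunits lie between -0.11 and 0.56.

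The 7 members that did not pass were 6 core subunits of the APC/C and securin (Pttg1). The remaining member, the centrosome kinase gene Nek2 (ENSMUSG00000026622.15), is listed at 0 counts in each of the 7 libraries and was not tested. A count of 0 allows up to 3 counts, which in these libraries is 0.223 to 0.301 CPM (counts scaled to a common library size). Ppp1ca, a phosphatase gene that every cell uses, is also listed at 0 in the 7 libraries, so a 0 in this table cannot be read as absence of the RNA.

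Total counts ran from 9956509 to 13429878 per library. The members together held 0.480%, 0.533%, 0.578% and 0.403% of the counts in FP replicates 1 to 4, and 0.132%, 0.135% and 0.131% in PBS replicates 1 to 3. In bulk RNA, more dividing cells and more of these transcripts per dividing cell cannot be told apart. The FP libraries did not rise to the same extent. FP replicate 4 was the lowest FP library in 38 of the 40 tested members outside the APC/C core, and in 31.9% of all genes tested. Its level in these 40 members was, at the median, 0.626 times the mean of the other FP libraries, and 0.976 times over all genes. It still lay above every PBS library in 43 of the 48 tested members. The share of all genes in which FP replicate 4 lay above every PBS library was not taken, so that count has no background beside it. Leaving it out kept the number of members called higher at 41.

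**Figure D2:**
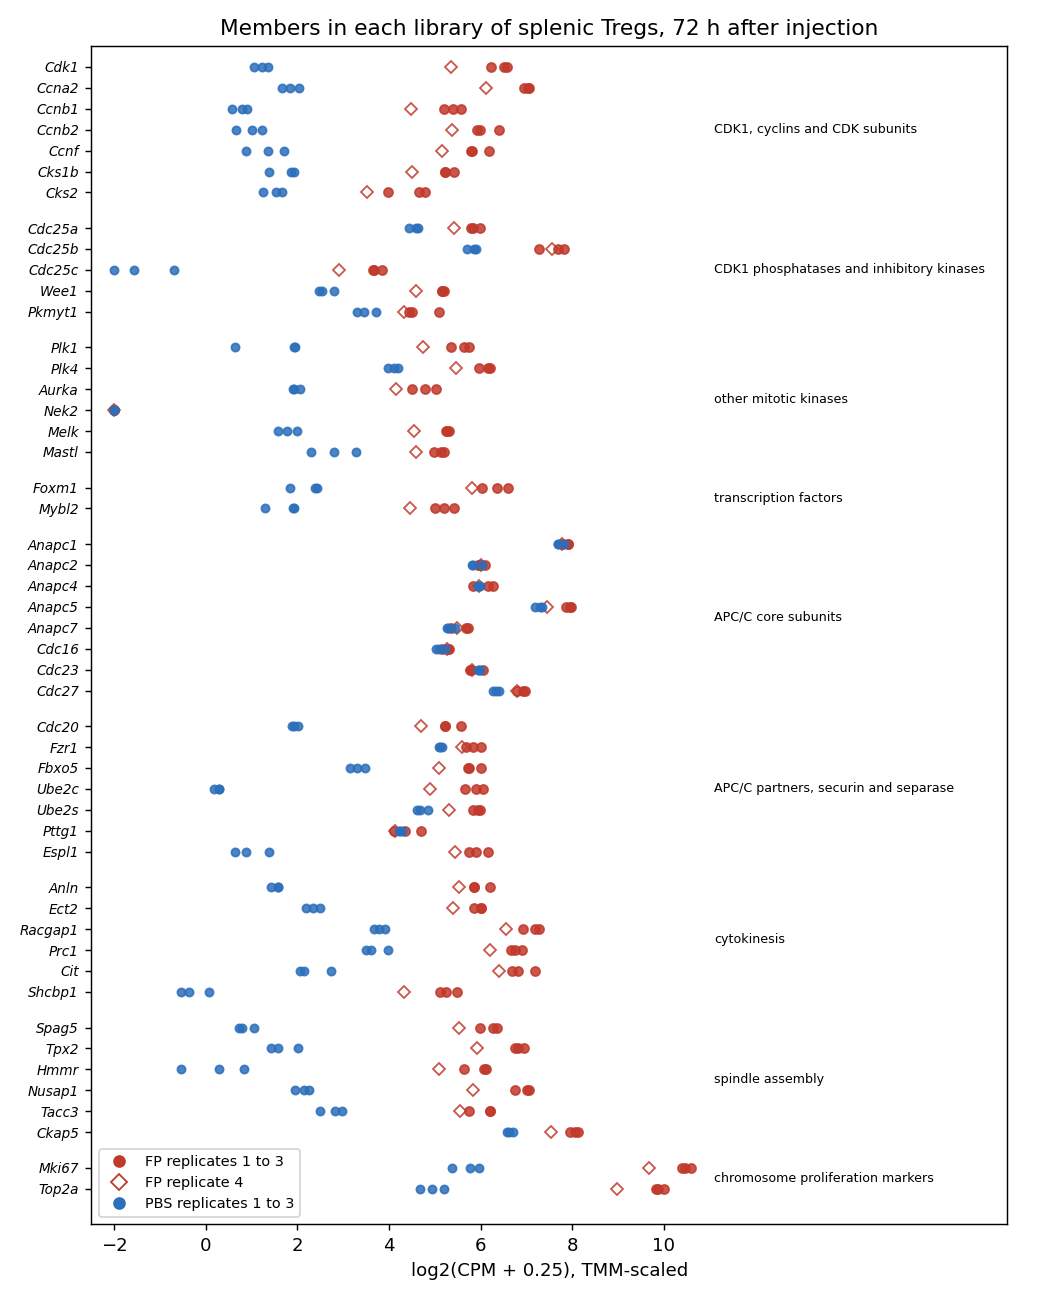
Level of each of the 49 members in each of the 7 libraries as log2(CPM + 0.25), grouped by role; filled red circles are FP replicates 1 to 3, open diamonds FP replicate 4 and blue circles PBS replicates 1 to 3. The FP and PBS points are apart in 41 members, the diamond is mostly the leftmost red point, and the groups overlap in the 6 core subunits and in Pttg1 that did not pass.

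Markers of other cells in the sort were summed. Each of the 7 markers of red pulp macrophages and monocytes was lower after FP. Their summed level was 13.3 to 84.8 CPM in the FP libraries and 429.7 to 1062 CPM in the PBS libraries, and its part in the results was not tested. Erythroid markers, which would mark another dividing population of the spleen, summed over 5 genes to 9.71 to 23.4 CPM after FP and 13.3 to 29.7 CPM after PBS. Epor was lower after FP and the remaining testable markers of that list did not pass; the defining gene Klf1 had at most 4 counts in a library. B cell markers summed to 17.3 to 28.4 CPM after FP and 16.6 to 29.7 CPM after PBS, and the groups overlapped. Plasma cell markers summed to 93.4 to 155 CPM after FP and 55.1 to 63.8 CPM after PBS, almost wholly from Xbp1, which other cells use; Jchain had at most 8 counts in a library. Dendritic cell markers summed to 10.0 to 14.7 CPM after FP and 19.3 to 25.0 CPM after PBS, and Zbtb46 of that list was lower, with a log2 fold change of -0.82 (adjusted p = 0.00453). Platelet markers summed to 2.38 to 4.08 CPM after FP and 3.97 to 5.34 CPM after PBS, and Itga2b was lower, at -0.73 (adjusted p = 0.0344). Neutrophil markers were near 0 but their sum was higher in each FP library, 0.641 to 1.24 CPM against 0 to 0.147 CPM. The sum of NK cell markers was lower, 0.0916 to 0.537 CPM against 0.733 to 1.75 CPM. That difference came from Klrb1c alone, with 3, 2, 1 and 5 counts after FP and 15, 10 and 20 counts after PBS. Ncr1 had 2 counts each in FP replicates 1 and 2 and 0 in the other libraries. No neutrophil or NK cell marker had enough counts to be tested. Klra8 of the NK cell list and Elane of the neutrophil list were listed at 0 in all libraries. CD8 T cell markers overlapped, at 7.84 to 12.9 CPM after FP and 8.93 to 9.80 CPM after PBS. The part of these markers in the results was not tested either. Of the 7 Treg markers 4 were higher after FP and 0 lower, and they summed to 5164 to 6008 CPM after FP and 3256 to 3635 CPM after PBS. That rise came mostly from Il2ra, which went from 602 ± 32.6 CPM after PBS (SD, n = 3) to 1938 ± 317 CPM after FP (SD, n = 4), and Ikzf2, from 1100 ± 88.0 CPM after PBS (SD, n = 3) to 1601 ± 157 CPM after FP (SD, n = 4). Foxp3 itself, at 0.14, Cd4, at 0.12, and Cd3e, at 0.11, did not pass.

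Promoters of the members outside the APC/C core were set beside those of the core, because mitotic genes are known to be controlled through a short element near the start site, the cell cycle genes homology region (CHR), often with upstream CCAAT boxes that bind NF-Y. RefSeq promoter windows on GRCm38.p6, 250 bases before to 50 after the start site, were found for 41 of the 49 members. The CHR was searched as TTTGAA and the CCAAT box as CCAAT, each on both strands and independently, so that matches could overlap. A CHR match was present for 19 of the 34 matched members outside the APC/C core (55.9%) and for 1 of the 7 matched core subunits, Anapc7. It was present for 20.2% of the 27025 genes in the promoter table and for 14.9% of the tested genes with a window. CHR and CCAAT matches occurred together for 18 of the 34 (52.9%), for 0 of the 7 core subunits and for 5.94% of the tested genes with a window. The stretches from 120 bases before to 20 after the start site are shown for 5 members that rose at least 10-fold and hold a CHR match there, with the matches in capitals:

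Cdk1 (chr10:69352893-69353032, minus strand): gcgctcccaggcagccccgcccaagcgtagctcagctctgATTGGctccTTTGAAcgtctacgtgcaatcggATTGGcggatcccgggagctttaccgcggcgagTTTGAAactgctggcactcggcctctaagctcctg
Ccnb2 (chr9:70421535-70421674, minus strand): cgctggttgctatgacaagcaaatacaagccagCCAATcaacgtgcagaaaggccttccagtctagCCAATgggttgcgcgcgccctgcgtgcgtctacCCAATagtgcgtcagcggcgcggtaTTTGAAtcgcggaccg
Cdc20 (chr4:118437324-118437463, minus strand): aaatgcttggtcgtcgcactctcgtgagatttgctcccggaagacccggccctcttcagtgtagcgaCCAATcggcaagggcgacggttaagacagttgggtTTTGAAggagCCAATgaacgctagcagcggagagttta
Ube2c (chr2:164769809-164769948, plus strand): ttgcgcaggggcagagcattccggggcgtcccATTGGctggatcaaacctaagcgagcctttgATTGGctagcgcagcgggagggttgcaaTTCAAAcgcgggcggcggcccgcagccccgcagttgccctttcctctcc
Espl1 (chr15:102296173-102296312, plus strand): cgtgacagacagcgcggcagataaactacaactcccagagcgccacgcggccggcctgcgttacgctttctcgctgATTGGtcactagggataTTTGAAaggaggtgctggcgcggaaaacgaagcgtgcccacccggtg

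Within these stretches the CHR match begins 71 and 15 bases before the start site in Cdk1, 18 before in Cdc20, 29 before in Ube2c, 27 before in Espl1, and at base 5 after it in Ccnb2, which has another match outside the stretch, 167 bases before the start site. Each of them also holds 1 to 3 CCAAT matches. The same stretch is shown for 3 members that changed by less than 2-fold, Fzr1 and the core subunit genes Cdc27 and Anapc1:

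Fzr1 (chr10:81378351-81378490, minus strand): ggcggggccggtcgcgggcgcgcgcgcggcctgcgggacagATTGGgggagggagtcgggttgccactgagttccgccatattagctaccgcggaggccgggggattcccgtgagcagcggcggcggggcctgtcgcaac
Cdc27 (chr11:104550601-104550740, minus strand): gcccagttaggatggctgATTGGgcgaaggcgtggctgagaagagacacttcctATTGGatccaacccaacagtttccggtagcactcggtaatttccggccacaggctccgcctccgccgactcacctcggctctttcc
Anapc1 (chr2:128687376-128687515, minus strand): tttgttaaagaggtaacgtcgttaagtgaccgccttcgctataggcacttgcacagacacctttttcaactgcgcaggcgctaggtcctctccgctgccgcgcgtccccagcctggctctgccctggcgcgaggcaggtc

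None of these 3 stretches holds a CHR match. Fzr1 has 1 CCAAT match, Cdc27 has 2 and Anapc1 has 0. Across the members, the 20 tested genes with a CHR match in the full window had a median log2 fold change of 4.18 (0.23 to 5.76) and the 20 without had 1.50 (0.08 to 4.70). Every matched core subunit other than Anapc7 is in the set without a match, so the sets also differ in their share of core subunits. The medians were not taken apart from the core, and a part of the match in the changes was not tested. Large rises without a match were found too, among them Ccnb1, Nusap1 and Cit. A match is a run of letters, not a measured binding site.

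**Figure D3:**
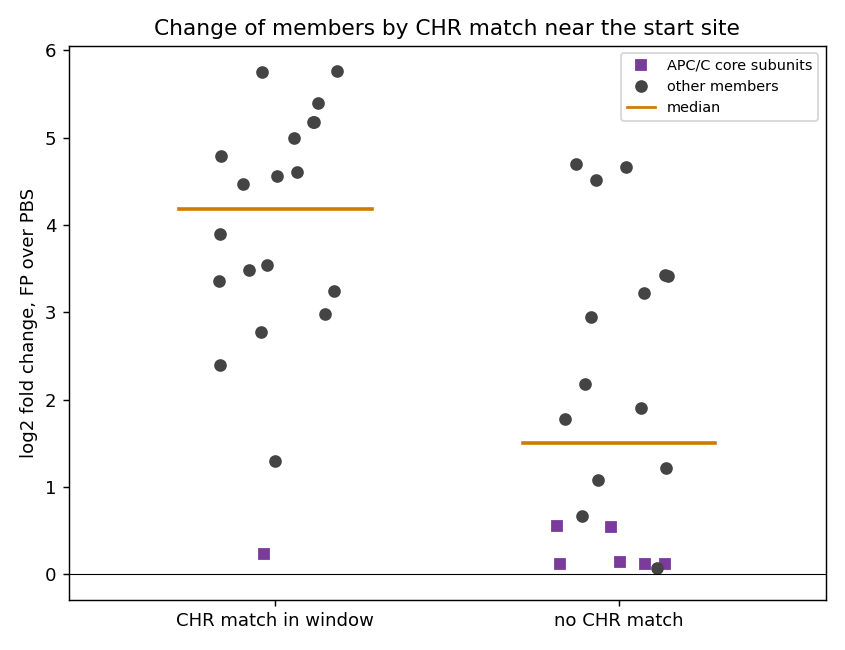
Log2 fold change of FP over PBS for the 40 tested members with a promoter window, by whether the window holds a CHR match; squares are APC/C core subunits and lines are medians. The medians are 4.18 with a match and 1.50 without, and the 2 sets overlap. All core subunits shown other than Anapc7 are in the set without a match.

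CDK1, its cyclins and its Cks subunits all rose, 7 of 7, with a median log2 fold change of 4.66. Cdk1, the kinase that starts mitosis (ENSMUSG00000019942.13, chromosome 10, 69335146 to 69352938, minus strand, GRCm38), measured 94.7, 91.6, 75.3 and 40.6 CPM in FP replicates 1 to 4 and 2.30, 1.83 and 2.10 CPM in PBS replicates 1 to 3. The FP libraries all lay above the PBS libraries, FP replicate 4 was the lowest of them, and the log2 fold change was 5.18 (SE 0.35, adjusted p = 1.15e-05). Ccna2, the cyclin of S phase and early mitosis, measured 124, 134, 132 and 69.7 CPM after FP and 2.91, 3.30 and 3.85 CPM after PBS in replicate order, which is kept below. Its log2 fold change was 5.09 (SE 0.28, adjusted p = 2.50e-06), and FP replicate 4 stood apart below the other FP libraries. The exons of Ccna2 overlap those of Exosc9 on the opposite strand, and the strand setting of the authors' counting is not given in the sources used here.

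Cyclin B1 and cyclin B2, the mitotic partners of CDK1, rose by similar amounts. Ccnb1 measured 47.6, 42.2, 36.5 and 22.0 CPM after FP and 1.24, 1.61 and 1.49 CPM after PBS. Ccnb2 measured 60.7, 84.4, 62.9 and 41.4 CPM after FP and 1.77, 1.32 and 2.10 CPM after PBS. Neither gene had an FP library near a PBS library; the log2 fold changes were 4.66 (SE 0.31, adjusted p = 4.61e-06) for Ccnb1 and 5.18 (SE 0.29, adjusted p = 2.32e-06) for Ccnb2. The log2 ratio of Ccnb1 to Ccnb2 counts within a library differed between FP and PBS by -0.53 (SE 0.30, exact permutation p = 0.114, 0.114 adjusted over the 8 pairs), and the libraries of the groups overlapped. With 4 against 3 libraries the smallest p that this two-sided exact permutation test can give is 0.0286. Cyclin F (Ccnf), the F-box cyclin that gives its name to that family of ubiquitin ligase subunits, went from 2.29 ± 0.715 CPM after PBS (SD, n = 3) to 55.0 ± 15.2 CPM after FP (SD, n = 4), which on the log2 scale is 4.56 (SE 0.30, adjusted p = 4.74e-06).

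The Cks proteins are small subunits that help CDK1 to bind phosphorylated substrates. Cks1b measured 37.4, 42.4, 37.2 and 22.3 CPM after FP and 3.53, 3.37 and 2.36 CPM after PBS. Cks2 measured 27.5, 24.9, 15.4 and 11.3 CPM after FP and 2.91, 2.13 and 2.63 CPM after PBS. Both rose, Cks1b by 3.48 (SE 0.26, adjusted p = 8.25e-06) and Cks2 by 2.95 (SE 0.34, adjusted p = 1.66e-04) on the log2 scale, and in each gene FP replicate 4 was the lowest FP library. The ratio of Cks2 to Cks1b differed by -0.61 (SE 0.29, exact permutation p = 0.114, 0.114 adjusted over the 8 pairs), with overlapping groups. Per length of exon (RPKM, the CPM divided by the exon length in kilobases), Ccnb2 was the highest of the 7 genes after FP at 40.7 ± 11.5 RPKM (SD, n = 4). Ccnf was the lowest at 7.05 ± 1.94 RPKM (SD, n = 4). Cks1b, Cks2 and Ccna2 lay between, at 30.9, 28.6 and 28.2 RPKM, closer to each other than their spread over libraries. After PBS the Cks genes were the highest of the 7 per length, with Cks2 at 3.69 ± 0.577 RPKM and Cks1b at 2.74 ± 0.562 RPKM (SD, n = 3).

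The enzymes that set the phosphorylation of CDK1 rose on both sides, the 3 activating phosphatases and the 2 inhibitory kinases. Their median log2 fold change was 1.78. Cdc25a, the phosphatase that also acts at S phase entry, measured 55.1, 57.1, 62.8 and 42.6 CPM after FP and 23.7, 24.7 and 21.5 CPM after PBS. Cdc25b, which acts at the start of mitosis, measured 154, 225, 206 and 188 CPM after FP and 59.9, 51.6 and 57.6 CPM after PBS. Cdc25c, the phosphatase first known for activating the cyclin B complex, measured 12.6, 12.3, 14.1 and 7.27 CPM after FP and 0, 0.367 and 0.0876 CPM after PBS. The first 2 were plainly expressed in PBS Tregs and rose by 1.22 (SE 0.14, adjusted p = 1.29e-04) and 1.78 (SE 0.13, adjusted p = 7.64e-06) on the log2 scale. Cdc25c was close to undetected after PBS, with 0, 5 and 1 counts in PBS replicates 1 to 3, and had 511 counts in the 4 FP libraries. Its log2 fold change, 6.05 (SE 0.52, adjusted p = 2.08e-05), was the highest of the members and rests on few PBS counts: without PBS replicate 2 it was 7.71.

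The ratio of Cdc25c to Cdc25b rose by 4.64 (SE 1.01, exact permutation p = 0.0286, 0.0457 adjusted over the 8 pairs). That size also hangs on PBS libraries, being 3.80 without PBS replicate 1, 5.50 without PBS replicate 2 and 3.54 when 2 counts in place of 0.5 were added to each gene. Per length Cdc25b was far above Cdc25c in each library. Cdc25b measured 15.1 ± 1.15 RPKM after PBS (SD, n = 3) and 51.9 ± 8.06 RPKM after FP (SD, n = 4). Cdc25c measured 0.0308 ± 0.0389 RPKM after PBS (SD, n = 3) and 2.35 ± 0.602 RPKM after FP (SD, n = 4).

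Of the inhibitory kinases, Wee1 acts in the nucleus and Pkmyt1 at membranes of the cytoplasm. Wee1 measured 36.8, 35.3, 35.3 and 23.8 CPM after FP and 5.30, 6.67 and 5.52 CPM after PBS. Pkmyt1 measured 21.3, 22.6, 34.0 and 19.8 CPM after FP and 9.54, 12.8 and 10.7 CPM after PBS. Wee1 rose by 2.48 (SE 0.19, adjusted p = 9.09e-06) and Pkmyt1 by 1.14 (SE 0.21, adjusted p = 0.00182) on the log2 scale; in neither did the groups overlap. The log2 ratio of Pkmyt1 to Wee1 was lower after FP, the difference being -1.35 (SE 0.17, exact permutation p = 0.0286, 0.0457 adjusted over the 8 pairs). Per length, Pkmyt1 over Wee1 was 1.69 to 1.82 in the PBS libraries and 0.543 to 0.902 in the FP libraries, so that the order of the pair turned over. Pkmyt1 shares exon sequence with Paqr4 on the opposite strand, which had 1060 counts over the libraries.

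**Figure D4:**
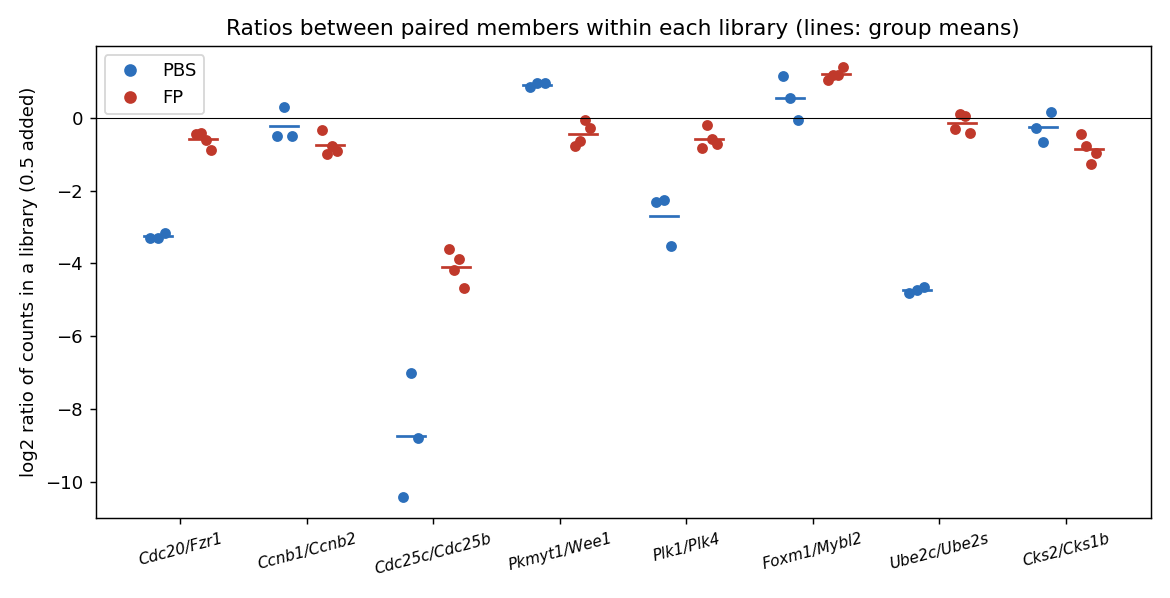
Log2 ratio of counts within each library for 8 pairs of members, fixed by role; red points are the 4 FP libraries, blue points the 3 PBS libraries and bars the group means. The groups are apart for Cdc20/Fzr1, Cdc25c/Cdc25b, Pkmyt1/Wee1, Plk1/Plk4 and Ube2c/Ube2s, and only Pkmyt1/Wee1 of these is lower after FP.

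The other mitotic kinases rose in 5 of 5 tested, with a median log2 fold change of 2.77. Plk1, the polo-like kinase of spindle poles, kinetochores and cytokinesis (ENSMUSG00000030867.7, chromosome 7, 122159439 to 122169873, plus strand, GRCm38), measured 40.5, 53.8, 49.5 and 26.6 CPM after FP and 3.62, 3.52 and 1.31 CPM after PBS. Plk4, the polo-like kinase that starts the copying of centrioles, measured 71.5, 62.4, 73.9 and 43.8 CPM after FP and 18.1, 17.1 and 15.4 CPM after PBS. Aurka, the Aurora kinase of spindle poles, measured 22.5, 32.3, 27.4 and 17.6 CPM after FP and 3.53, 3.89 and 3.50 CPM after PBS. FP replicate 4 was the lowest FP library for each, still far above PBS, and the log2 fold changes were 3.90 (SE 0.36, adjusted p = 5.40e-05) for Plk1, 1.90 (SE 0.18, adjusted p = 4.21e-05) for Plk4 and 2.77 (SE 0.23, adjusted p = 1.55e-05) for Aurka. The ratio of Plk1 to Plk4 rose by 2.11 (SE 0.43, exact permutation p = 0.0286, 0.0457 adjusted over the 8 pairs). Per length, Plk1 was below Plk4 in PBS libraries and above it in FP libraries: the ratio was 0.266 to 0.642 in the PBS libraries and 1.77 to 2.69 in the FP libraries. By counts Plk4 was the higher of the pair in every library, with a log2 ratio of -0.82 to -0.21 in the FP libraries, so the change of order rests on the exon lengths. PBS replicate 3 had the lowest Plk1 of all libraries, 15 counts.

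Melk, a kinase of dividing and progenitor cells, and Mastl, the Greatwall kinase that holds back the phosphatase PP2A-B55 in mitosis, rose as well. Melk went from 3.19 ± 0.499 CPM after PBS (SD, n = 3) to 34.6 ± 7.52 CPM after FP (SD, n = 4) and Mastl from 6.94 ± 2.40 CPM after PBS (SD, n = 3) to 31.6 ± 5.61 CPM after FP (SD, n = 4). The log2 fold changes were 3.43 (SE 0.23, adjusted p = 3.87e-06) and 2.18 (SE 0.24, adjusted p = 1.01e-04). Other mitotic kinases that are not members rose in 9 of 14, with 0 called lower, beside 21.0% and 18.5% of all genes tested. Their median was 0.89. Bub1, a kinase of the spindle checkpoint, rose by 5.09 on the log2 scale, from 1.34 ± 0.399 CPM after PBS (SD, n = 3) to 46.2 ± 9.49 CPM after FP (SD, n = 4). Aurkb, the Aurora kinase of the chromosomal passenger complex, rose by 5.14, and Bub1b, which encodes the checkpoint protein BubR1, by 4.12. With upper-quartile factors or library size alone 3 genes of that list were called lower. Of 10 tested phosphatase genes and regulators, PP2A and Greatwall substrates included, 4 were higher and 0 lower, with a median of 0.08. In so short a list those counts are not far from the 21.0% higher and 18.5% lower over all genes tested. Ppp1cc, a catalytic subunit of PP1, changed by 0.62, the Greatwall substrate Arpp19 by 0.62 and the PP2A scaffold Ppp2r1a by 0.57, each a rise of less than 2-fold.

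The transcription factors of the mitotic programme, FoxM1 and B-Myb (gene Mybl2), bind promoters with the CHR through the MuvB complex. Foxm1 (ENSMUSG00000001517.14, chromosome 6, 128362967 to 128376146, plus strand, GRCm38) measured 65.2, 82.1, 97.4 and 56.3 CPM after FP and 4.95, 5.13 and 3.33 CPM after PBS. Mybl2 measured 31.7, 36.8, 42.9 and 21.6 CPM after FP and 2.21, 3.52 and 3.50 CPM after PBS. Both rose with no overlap of the groups, Foxm1 by 4.06 (SE 0.24, adjusted p = 2.63e-06) and Mybl2 by 3.42 (SE 0.27, adjusted p = 1.46e-05) on the log2 scale. Their ratio, Foxm1 to Mybl2, differed by 0.65 (SE 0.36, exact permutation p = 0.0571, 0.0762 adjusted over the 8 pairs), and the groups overlapped. Of 12 genes for MuvB, its DREAM partners and the pocket proteins, 6 were higher and 1 lower, beside 21.0% and 18.5% of all genes tested. Their median was 0.47. Tfdp1, the dimer partner of E2F factors, rose from 30.1 ± 2.62 CPM after PBS (SD, n = 3) to 102 ± 18.4 CPM after FP (SD, n = 4) and Rbl1, the pocket protein p107, from 73.4 ± 1.52 CPM after PBS (SD, n = 3) to 167 ± 20.5 CPM after FP (SD, n = 4). E2f4 rose by 0.62 on the log2 scale and E2f5 fell, with a log2 fold change of -1.01, from 10.9 ± 1.33 CPM after PBS (SD, n = 3) to 5.38 ± 1.06 CPM after FP (SD, n = 4). The retinoblastoma gene Rb1 was at -0.06 and did not pass. With upper-quartile factors or library size alone 2 genes of the list were called lower.

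Most genes of the APC/C core did not pass the test. Of its 8 genes 2 rose and 0 fell, beside 21.0% and 18.5% of all genes tested, so the share that rose was near the background. The median log2 fold change was 0.13, with a range from -0.11 to 0.56. Anapc5, a subunit of the platform (ENSMUSG00000029472.13, chromosome 5, 122787459 to 122821339, minus strand, GRCm38), measured 234, 249, 252 and 176 CPM after FP and 157, 161 and 146 CPM after PBS. Cdc27, a tetratricopeptide repeat subunit that binds the activators (ENSMUSG00000020687.13, chromosome 11, 104502745 to 104550620, minus strand, GRCm38), measured 126, 122, 110.3 and 111 CPM after FP and 83.9, 77.2 and 80.4 CPM after PBS. In both genes every FP library was above every PBS library, although by far less than in the mitotic kinases. The log2 fold changes were 0.56 (SE 0.13, adjusted p = 0.00570) and 0.54 (SE 0.09, adjusted p = 8.41e-04). With library size alone Anapc5 no longer passed, at 0.28 (adjusted p = 0.0671), while Cdc27 passed under each alternative tried.

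The 6 core genes that did not pass had overlapping groups. Anapc1, the largest subunit, measured 221, 240.4, 241 and 221 CPM after FP and 225, 206 and 207 CPM after PBS. Anapc2, the cullin of the complex, measured 61.8, 68.5, 62.8 and 64.3 CPM after FP and 56.5, 64.9 and 56.0 CPM after PBS. Anapc4, which links platform subunits, measured 77.3, 71.6, 57.0 and 62.5 CPM after FP and 61.2, 61.1 and 62.9 CPM after PBS. In these 3 genes no group was clear of the other; the log2 fold changes were 0.12 (SE 0.08, adjusted p = 0.292), 0.12 (SE 0.09, adjusted p = 0.322) and 0.12 (SE 0.11, adjusted p = 0.421) in that order. Anapc7, a repeat subunit, was alone in holding a CHR match among the 7 core genes with a promoter window. It measured 40.8, 51.3, 52.7 and 44.4 CPM after FP and 39.0, 43.5 and 38.3 CPM after PBS. Cdc16, another repeat subunit, measured 39.3, 38.7, 35.3 and 38.4 CPM after FP and 33.8, 37.0 and 32.5 CPM after PBS. Cdc23, also a repeat subunit, measured 54.9, 54.3, 66.2 and 55.6 CPM after FP and 63.1, 62.7 and 61.0 CPM after PBS. The groups of Anapc7 and Cdc16 overlapped in part, and of Cdc23 FP replicate 3 was the highest of the 7 libraries while the other FP libraries were below PBS. Their log2 fold changes were 0.23 (SE 0.12, adjusted p = 0.135), 0.14 (SE 0.10, adjusted p = 0.300) and -0.11 (SE 0.10, adjusted p = 0.403).

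The directions of 5 of these 6 depend on the scaling, while Cdc23 was below 0 under each alternative tried. With library size alone all 6 were below 0, from -0.03 for Anapc7 to -0.37 for Cdc23, and Cdc23 was then called lower (adjusted p = 0.0392). With upper-quartile factors Cdc23 was also called lower, at -0.31 (adjusted p = 0.0354). Without FP replicate 1 Anapc7 passed as higher, at 0.31 (adjusted p = 0.0494). Exons of Cdc23 overlap those of Kif20a, a mitotic kinesin gene on the opposite strand, so reads of one could count for the other if strand was not used.

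**Figure D5:**
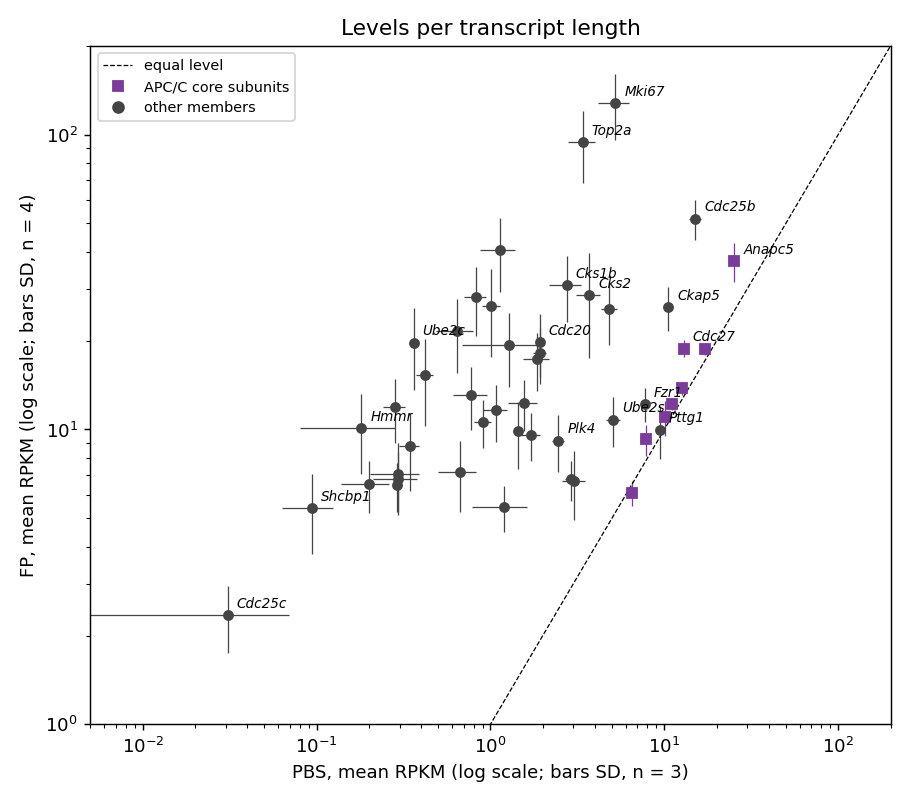
Mean level per exon length in RPKM on log axes, PBS on the x axis and FP on the y axis, for the 48 tested members; squares are APC/C core subunits, circles the other members, the dashed line equality and bars the SD over libraries. After FP the core lies between 6.08 and 37.3 RPKM, near the line, while most other members lie well above it.

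Per length the other members lay mostly below the core after PBS and level with it after FP. After PBS the 8 core genes ran from 6.55 RPKM (Cdc23) to 25.3 RPKM (Anapc5) with a median of 11.9, and the 40 other tested members from 0.0308 RPKM (Cdc25c) to 15.1 RPKM (Cdc25b) with a median of 1.24. After FP the medians were 13.0 RPKM for the core and 12.1 RPKM for the other members. Of 6 further APC/C subunit genes that are not members, 3 were higher and 0 lower, beside 21.0% and 18.5% of all genes tested. Their median was 0.37. Anapc13 went from 9.11 ± 0.568 CPM after PBS (SD, n = 3) to 19.6 ± 6.27 CPM after FP (SD, n = 4), Anapc15 from 4.44 ± 0.960 CPM after PBS (SD, n = 3) to 8.65 ± 2.08 CPM after FP (SD, n = 4) and the RING subunit Anapc11 from 28.7 ± 2.28 CPM after PBS (SD, n = 3) to 37.2 ± 4.07 CPM after FP (SD, n = 4). With library size alone 1 of the 6 was called higher.

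Of the activators, inhibitor, enzymes and anaphase targets that work with the APC/C, 6 of 7 rose, with a median of 2.40. Cdc20, the activator in mitosis and a target of the spindle checkpoint (ENSMUSG00000006398.15, chromosome 4, 118432901 to 118437352, minus strand, GRCm38), measured 37.1, 47.6, 37.4 and 25.7 CPM after FP and 3.53, 3.45 and 3.77 CPM after PBS. Fzr1, which encodes the activator Cdh1 of late mitosis and G1 (ENSMUSG00000020235.16, chromosome 10, 81366222 to 81378516, minus strand, GRCm38), measured 50.8, 64.2, 56.7 and 48.1 CPM after FP and 35.3, 34.5 and 34.0 CPM after PBS. Both rose without overlap, Cdc20 by 3.36 (SE 0.22, adjusted p = 3.71e-06) and Fzr1 by 0.67 (SE 0.12, adjusted p = 0.00142) on the log2 scale. The ratio of Cdc20 to Fzr1 rose by 2.66 (SE 0.12, exact permutation p = 0.0286, 0.0457 adjusted over the 8 pairs). Per length it was 0.240 to 0.266 in the PBS libraries and 1.28 to 1.78 in the FP libraries. Fzr1 was thus the higher of the pair per length after PBS, and Cdc20 after FP. By counts Fzr1 was the higher in every library, with a log2 ratio of -0.90 to -0.43 in the FP libraries. Of the printed promoters, that of Cdc20 holds the CHR match and that of Fzr1 does not. Any part of the match in the change of this ratio was not tested. Cdc20 overlaps Elovl1 and Fzr1 overlaps Mfsd12, each on the opposite strand. Fbxo5, which encodes the APC/C inhibitor Emi1, measured 63.8, 53.9, 53.1 and 34.0 CPM after FP and 10.8, 9.60 and 8.67 CPM after PBS. It rose by 2.40 (SE 0.21, adjusted p = 2.38e-05) on the log2 scale, and FP replicate 4 was the lowest FP library.

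The enzymes that hand ubiquitin to APC/C substrates are Ube2c, which starts the chains, and Ube2s, which extends them. Ube2c (ENSMUSG00000001403.13, chromosome 2, 164769898 to 164778822, plus strand, GRCm38) measured 50.4, 65.9, 59.3 and 29.5 CPM after FP and 0.972, 0.880 and 0.963 CPM after PBS. Ube2s measured 63.1, 61.3, 57.3 and 39.4 CPM after FP and 28.7, 24.3 and 25.5 CPM after PBS. Ube2c was near 1 CPM in each PBS library and Ube2s was not; the log2 fold changes were 5.76 (SE 0.34, adjusted p = 3.12e-06) for Ube2c and 1.08 (SE 0.16, adjusted p = 6.52e-04) for Ube2s. Their ratio rose by 4.59 (SE 0.14, exact permutation p = 0.0286, 0.0457 adjusted over the 8 pairs), the groups being far apart. Per length Ube2c over Ube2s was 0.0669 to 0.0747 in the PBS libraries and 1.48 to 2.13 in the FP libraries. By counts the log2 ratio was -4.82 to -4.66 in the PBS libraries and -0.42 to 0.10 in the FP libraries. Ube2s overlaps Rpl28, an abundant ribosomal protein gene on the opposite strand with 30717 counts, so its level is the less certain.

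Separase is the protease that cuts cohesin at anaphase, and securin is the inhibitor that the APC/C destroys to release it; the first passed the test and the second did not. Espl1, the separase gene (ENSMUSG00000058290.3, chromosome 15, 102296266 to 102324357, plus strand, GRCm38), measured 53.7, 59.8, 70.9 and 43.3 CPM after FP and 1.59, 2.35 and 1.31 CPM after PBS. Pttg1, the securin gene (ENSMUSG00000020415.16, chromosome 11, 43420250 to 43426251, minus strand, GRCm38), measured 25.7, 20.0, 16.9 and 17.3 CPM after FP and 18.6, 18.5 and 19.2 CPM after PBS. Separase was low in PBS libraries and high in each FP library, and rose by 4.99 (SE 0.25, adjusted p = 1.30e-06) on the log2 scale. Securin overlapped between the groups, with FP replicate 1 the highest library and FP replicate 3 the lowest, and did not pass, at 0.08 (SE 0.16, adjusted p = 0.698). It was the only tested member outside the APC/C core that did not pass. Without FP replicate 1 its log2 fold change was -0.05, while upper-quartile factors gave -0.12 and library size alone gave -0.20, none of which passed.

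In SCF, the other large ubiquitin ligase of the cell cycle, 3 of 8 tested genes were higher and 2 lower, with a median of 0.32. Over all genes tested 21.0% were higher and 18.5% lower, and counts in so short a list are not far from that. Rbx1, its RING subunit, rose by 0.85 on the log2 scale, the F-box gene Fbxw7 by 0.44 and the deubiquitinase gene Usp37 by 0.46. The F-box genes Btrc, at -0.60, and Fbxl12, at -0.91, fell. With library size alone 1 gene of this list was called higher. Of the 8 cyclin and CDK genes of G1 and S phase 7 rose and 0 fell, with a median of 0.84. Cdk6 went from 133 ± 5.61 CPM after PBS (SD, n = 3) to 407 ± 15.6 CPM after FP (SD, n = 4), Ccne1 from 8.59 ± 0.962 CPM after PBS (SD, n = 3) to 29.9 ± 7.54 CPM after FP (SD, n = 4) and Ccne2 from 7.63 ± 0.709 CPM after PBS (SD, n = 3) to 37.9 ± 13.8 CPM after FP (SD, n = 4). Cyclin D1 (Ccnd1) was at -0.48 and did not pass (adjusted p = 0.0684); with upper-quartile factors or library size alone 1 gene of the list was called lower.

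The genes of cytokinesis, the splitting of the cell body after anaphase, rose in 6 of 6, with a median log2 fold change of 4.01. Ect2 activates RhoA at the cleavage plane, Racgap1 is its partner in the centralspindlin complex, and Prc1 bundles the microtubules between the separating chromosomes. Ect2 measured 63.8, 57.4, 64.5 and 42.0 CPM after FP and 4.33, 5.42 and 4.82 CPM after PBS. Racgap1 measured 121, 146, 156 and 93.6 CPM after FP and 14.8, 13.6 and 12.5 CPM after PBS. Prc1 measured 102, 108, 119.7 and 73.6 CPM after FP and 11, 11.9 and 15.5 CPM after PBS. These 3 genes were well above the floor after PBS and rose by 3.54 (SE 0.19, adjusted p = 1.57e-06), 3.24 (SE 0.19, adjusted p = 2.32e-06) and 2.98 (SE 0.19, adjusted p = 3.72e-06) on the log2 scale, with FP replicate 4 the lowest FP library in each. Prc1 shares exon sequence with Rccd1 on the opposite strand, which had 1424 counts over the libraries, so its level after PBS is less certain.

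Anln encodes anillin, the scaffold of the contractile ring, and Cit the citron kinase of the midbody. Anln (ENSMUSG00000036777.8, chromosome 9, 22332012 to 22389188, minus strand, GRCm38) measured 57.4, 57.7, 73.4 and 46.1 CPM after FP and 2.74, 2.71 and 2.45 CPM after PBS. Cit measured 103, 113, 146 and 84.9 CPM after FP and 3.89, 6.45 and 4.20 CPM after PBS. Their FP and PBS libraries were far apart; the log2 fold changes were 4.47 (SE 0.19, adjusted p = 1.15e-06) for Anln and 4.51 (SE 0.24, adjusted p = 2.27e-06) for Cit. Shcbp1, a midbody protein that binds centralspindlin, went from 0.591 ± 0.192 CPM after PBS (SD, n = 3) to 34.0 ± 10.3 CPM after FP (SD, n = 4), or 5.79 (SE 0.37, adjusted p = 3.71e-06) on the log2 scale, and rested on 22 counts over the PBS libraries. Of 19 other cytokinesis and abscission genes 14 were higher and 1 lower, beside 21.0% and 18.5% of all genes tested. Their median was 0.63. With library size alone 9 were higher and 2 lower. Kif23, the kinesin of centralspindlin, rose from 4.74 ± 0.390 CPM after PBS (SD, n = 3) to 73.9 ± 13.1 CPM after FP (SD, n = 4). The kinesin gene Kif14 rose by 5.31 and Birc5, which encodes survivin of the passenger complex, by 5.30 on the log2 scale. Rhob fell from 25.1 ± 3.54 CPM after PBS (SD, n = 3) to 5.72 ± 2.33 CPM after FP (SD, n = 4).

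Spindle assembly genes rose in 6 of 6, with a median of 4.89. Tpx2 activates and places Aurora A on the spindle, Hmmr acts at spindle poles, and Ckap5 is a microtubule polymerase. Tpx2 (ENSMUSG00000027469.16, chromosome 2, 152847964 to 152895321, plus strand, GRCm38) measured 107, 124, 112 and 60.3 CPM after FP and 3.80, 2.71 and 2.45 CPM after PBS. Hmmr measured 69.0, 67.6, 49.8 and 34.0 CPM after FP and 0.972, 1.54 and 0.438 CPM after PBS. Ckap5 measured 269, 279, 249.7 and 186 CPM after FP and 105, 99.0 and 95.2 CPM after PBS. The first 2 were at most 3.80 CPM in a PBS library and Ckap5 was near 100 CPM there; all FP libraries were higher. The log2 fold changes were 5.08 (SE 0.30, adjusted p = 3.96e-06), 5.75 (SE 0.39, adjusted p = 8.94e-06) and 1.30 (SE 0.14, adjusted p = 7.71e-05). Spag5 (astrin), Nusap1 and Tacc3, which bind spindle microtubules, went the same way. Spag5 rose from 1.58 ± 0.224 CPM after PBS (SD, n = 3) to 67.2 ± 16.4 CPM after FP (SD, n = 4), Nusap1 from 4.10 ± 0.483 CPM after PBS (SD, n = 3) to 107 ± 35.3 CPM after FP (SD, n = 4) and Tacc3 from 6.59 ± 1.16 CPM after PBS (SD, n = 3) to 61.7 ± 13.8 CPM after FP (SD, n = 4), with log2 fold changes of 5.39, 4.70 and 3.22 (SE 0.26, 0.34 and 0.21). Nusap1 overlaps Oip5 (433 counts over the libraries) and Tacc3 overlaps Tmem129 (1354 counts), each on the opposite strand. Of 13 centrosome genes that work with the spindle genes, 12 were higher and 0 lower, beside 21.0% and 18.5% of all genes tested. Their median was 0.63, and with library size alone 7 were higher. Stil, needed for centriole copying, rose from 1.71 ± 0.404 CPM after PBS (SD, n = 3) to 60.4 ± 15.2 CPM after FP (SD, n = 4). The augmin subunit gene Haus4 rose by 1.37 and Bora, which helps Aurora A to switch on Plk1, by 1.21 on the log2 scale.

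Mki67, the Ki-67 antigen that coats mitotic chromosomes, and Top2a, the topoisomerase that untangles them, were the most abundant members per length after FP. Mki67 (ENSMUSG00000031004.8, chromosome 7, 135689784 to 135716361, minus strand, GRCm38) measured 1363, 1553, 1409 and 817 CPM after FP and 62.3, 54.5 and 41.1 CPM after PBS. Top2a measured 947, 1032, 911 and 508 CPM after FP and 36.3, 30.3 and 25.3 CPM after PBS. The groups were far apart, FP replicate 4 was the lowest FP library in both, and the log2 fold changes were 4.61 (SE 0.26, adjusted p = 3.06e-06) and 4.79 (SE 0.28, adjusted p = 3.51e-06). Per length Mki67 measured 5.23 ± 1.07 RPKM after PBS (SD, n = 3) and 128 ± 32.1 RPKM after FP (SD, n = 4). Together the 2 genes held from 5.80% of the members' counts in PBS replicate 3 to 41.1% in FP replicate 2. That share was higher in every FP library than in every PBS library.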

How the data were processed

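Per the labels' protocols, RNA was taken from sorted splenic Tregs and 25 ng of it went into each library, from which the kit depleted ribosomal RNA. Per the design text and the submitters' processing notes, the authors mapped reads to GRCm38 with STAR (2.5.0, or 2.5.0b in the notes) and ran featureCounts 1.5.0 on GENCODE M13 genes. The strand setting and the handling of reads that map to several places are, in the sources used here, not given. The values deposited are unscaled counts of reads per gene; 51138 genes are listed, 50376 of them with a symbol found. The members and gene lists were chosen with earlier results of these data known.

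Genes were filtered with filterByExpr, scaled with TMM and tested with the quasi-likelihood test of edgeR 4.0.16 in R 4.3.3 (robust fit), FP against PBS. Adjusted p values are Benjamini-Hochberg over the 15954 genes tested, with a threshold of 0.05, and SE is the log2 fold change divided by the square root of F. RPKM is TMM-scaled CPM over the summed exon length, from GENCODE M21, a newer annotation of the same build. Ratios of 8 pairs, with 0.5 added to each count, were compared with two-sided exact permutation tests and adjusted over the pairs. Values in every library were given for the main members of each role and for each that did not pass, and up to 3 genes of smallest p, plus any called lower, for the other gene lists; marker lists were described by their sums. Exons of 16 members overlap those of a gene with counts, 13 of them on the opposite strand. Depth limits the precision of low values, and floors take in counting error only: without molecular identifiers, reads are not separate molecules.

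Alternatives were the size factors and the test of DESeq2 1.42.0, upper-quartile factors, library size alone, limma-voom (limma 3.58.1), no filter, at least 1 CPM in 3 libraries, a replicate block, 2 counts added to ratios, and leaving out each library. The scripts were tested on simulated counts. A search for destruction motifs in the proteins was planned and is not analysed here. A marker of the erythroid list is not reported here. A second spelling of the CHR, TTCGAA, was found in 4 of the 41 member promoters and in 2.49% of those of tested genes, and is not counted above.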

Additional observations from a re-analysis of the deposited data

Results flagged for a closer look

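Of 57 groups of 4 FP values examined, 4 had a library set apart from the other 3 by a gap above Dixon's 95% critical value. Chance flags about 1 in 20 groups. In 3 of them FP replicate 4 was low: Ccna2 at 69.7 CPM, against 124 to 134 CPM in the other FP libraries, Wee1 at 23.8 CPM, against 35.3 to 36.8 CPM, and Melk at 23.3 CPM, against 37.5 to 39.2 CPM. In the APC/C core gene Cdc23 it was FP replicate 3 that was high, at 66.2 CPM, against 54.3 to 55.6 CPM.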

How the results depend on the processing

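Over 15 alternatives, 704 of 720 values of single members kept their direction and their side of the threshold, 12 reversed, 3 came to pass and 1 ceased to pass, and 40 of the 48 tested members were stable in all 15. Members called higher numbered 40 with library size alone, 42 without FP replicate 1 and 41 otherwise. Cdc23 made 1 member called lower with upper-quartile factors, and again 1 when library size alone was used. None of the reversed values passed. In the order of upper-quartile factors, then library size alone, Anapc1 was at -0.09 and -0.15, Anapc2 at -0.08 and -0.15, Anapc4 at -0.09 and -0.16, Cdc16 at -0.07 and -0.13, and Pttg1 at -0.12 and -0.20. Anapc7 was at -0.03 with library size alone, and Pttg1 ran from -0.05 (without FP replicate 1) to 0.16 as single libraries were left out. The cause was not tested.

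Over all genes, leaving out 1 library at a time gave 4088 (without PBS replicate 3) to 7277 called, 2314 to 3888 higher and 1774 to 3389 lower. Upper-quartile factors gave 4823 lower, and library size alone gave 5046 lower and 2023 higher. With a replicate block 7870 genes were called, 41 members higher and 0 lower. Deviations of same-numbered libraries correlated at 0.22, 0.07 and 0.10, and every PBS library correlated best with its own number. The main test used no block because the labels do not say that equal numbers share an animal or a day.

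Of the pair ratios, leaving out 1 library gave 2.61 to 2.76 for Cdc20/Fzr1, 3.80 to 5.50 for Cdc25c/Cdc25b, -1.48 to -1.23 for Pkmyt1/Wee1, 1.71 to 2.33 for Plk1/Plk4 and 4.51 to 4.68 for Ube2c/Ube2s, and no exact p could then fall below 0.0667 or, for 3 against 3, 0.100. The others ran from -0.66 to -0.27 for Ccnb1/Ccnb2, 0.35 to 0.96 for Foxm1/Mybl2 and -0.80 to -0.40 for Cks2/Cks1b.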
